A study of Mus musculus with 6 samples.

Results

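The tryptophan- and arginine-degrading enzymes Ido1, Tdo2, Kynu, Kmo, Arg1, Arg2 and Nos2, together with the arginine-synthesis enzyme Ass1, were followed in 6 subcutaneous mouse tumours of KPC1199, a line of pancreatic ductal adenocarcinoma. The 8 genes were taken by name from 18194 genes that had a probe set naming a single gene, and they were covered by 12 such probe sets. Their group was selected on the lactation and control signals of these same arrays, which were already known, so their differences between the groups are given as a description and not as evidence. Tumours came from 3 mice of the lactation group and 3 control mice (ctrl in the labels), and each was hybridised to its own array. The line was given as a subcutaneous injection in the right back, which in the lactation group was timed to pregnancy or to the start of nursing, and every mouse was killed 20 days later at the same age. Pregnant and nursing mice are not told apart in the labels, and no strain, genotype or age in weeks is given there. All 6 tumours share the same injected line.

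Tryptophan is opened to a kynurenine precursor by Ido1, Ido2 or Tdo2, and the product is carried on by Kmo and Kynu towards NAD. Ido1 is induced by interferon gamma in dendritic cells, macrophages and many tumour cells, Tdo2 is chiefly a liver enzyme, and loss of tryptophan with a gain of kynurenine is known to restrain T cells. Arginine is split into ornithine and urea by Arg1 in the cytosol and Arg2 in mitochondria, or turned into nitric oxide and citrulline by Nos2. In mouse macrophages Arg1 is a classic response to type 2 cytokines and Nos2 to interferon gamma and bacterial products. Ass1 joins citrulline to aspartate on the way back to arginine.

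Values are deposited MAS5 signals, a linear intensity already scaled to a common level, and their number, 3 arrays per group, limits the precision. Differences are lactation minus control on the log2(signal + 16) scale, where the added 16 can make those of dim genes too small. Array medians lay between 99.3 and 111.0. Ido1, Kmo and Arg1 reached the median of their array on all 6 arrays and so passed the level filter, which asked for at least 3 arrays at or above the array's median. The other 5 genes did not. For them the values, differences and intervals come from a fit with no filter and every single-gene probe set as a row. Keratin and other epithelial genes of the tumour cells were bright, with summed signals over 8 markers of 73646 to 103191 in lactation and 69302 to 86810.4 in controls. All 8 had a higher mean log2 level in lactation, with a median difference of 0.24 and 0 called, while all 11 macrophage and monocyte markers had a lower one, with a median difference of -0.27 and 0 called. The part of these shifts in the differences below was not tested. In whole tumours, fewer cells of a type and less RNA per cell cannot be told apart.

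Of the 3 tested genes, Ido1 and Kmo had a higher mean log2 level in lactation and Arg1 a lower one. The limma fit over all 11623 tested genes called 0 genes at a Benjamini-Hochberg adjusted p under 0.05, which is 0% of them, and so 0 of these 3. At an unadjusted p under 0.05 it gave 264 genes, or 2.27%, and again 0 of the 3. The lactation and control signals overlapped for each of the 8 genes and each of the 12 probe sets. Over all tested genes the groups were apart in 6.9%, and 48.3% of tested genes had a positive difference. Ido1 and Arg1 varied widely between tumours of the same group. The within-group SD on the log2 scale was 0.95 for Ido1 and 0.97 for Arg1, above 98.3% and 98.5% of the tested genes, against a median of 0.16. That of Kmo was 0.31, above 81.4% of them.

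**Figure D1:**
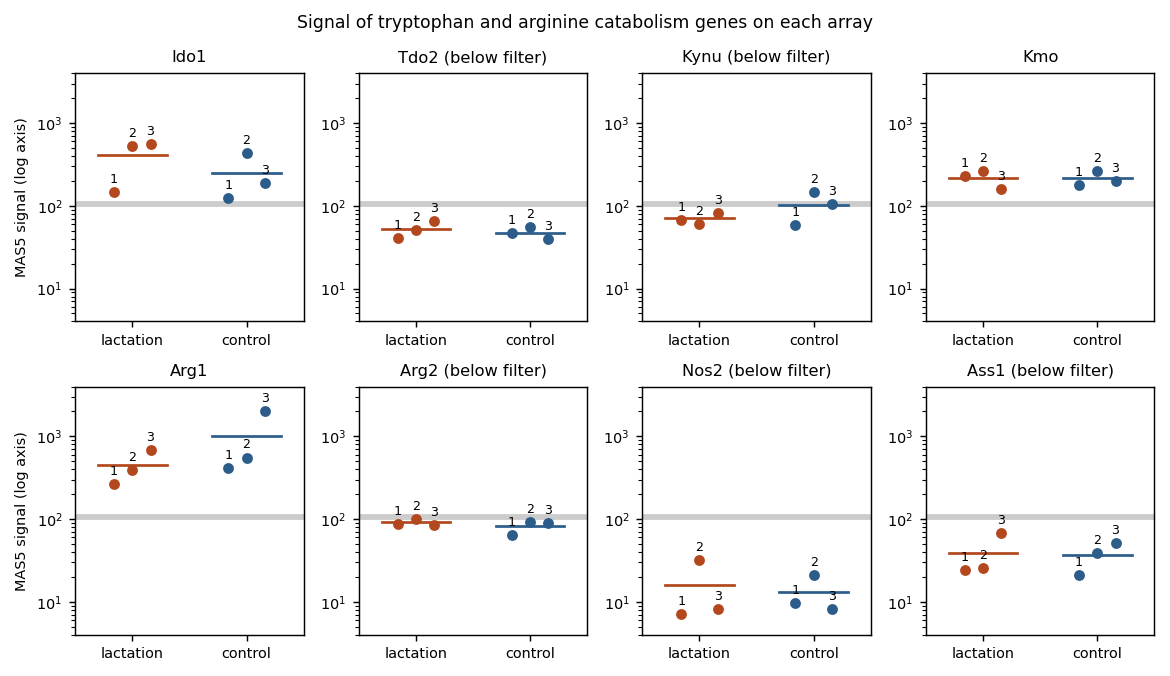
MAS5 signal of the 8 genes on each array (log axis), with lactation in orange and control in blue, replicate numbers above the points and group means as bars. The grey band spans the 6 array medians, from 99.3 to 111.0. Ido1 had high and low arrays in both groups, and Arg1 had 1 control array at 2027.

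Ido1, probe set 1420437_at, had signals of 146, 526 and 560 in lactation replicates 1 to 3, against 124, 434 and 191 in control replicates 1 to 3. Lactation replicates 2 and 3 and control replicate 2 made up a high set, and the other 3 arrays a low one, so that both groups held high and low tumours. The highest array stood 4.52 times above the lowest. The means were 411 ± 230 in lactation and 250 ± 163 in controls (SD, n = 3 each), and the log2 difference was 0.65 (standard error 0.59), with a 95% interval from -0.75 to 2.05. The difference was 1.25 without lactation replicate 1 and 1.12 without control replicate 2, and it was 0.28 without control replicate 1, 0.33 without lactation replicate 3 and 0.38 without lactation replicate 2.

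Among 11622 other tested genes, the pair whose log2 levels followed Ido1 most closely over the 6 arrays were Gnl3l, a nucleolar GTPase (Pearson's r = 0.992), and Ubd, a ubiquitin-like protein induced by interferon gamma and TNF (r = 0.982). These are descriptions from 6 arrays, and 65 genes had an r of at least 0.9 with Ido1. Ubd had signals of 127, 537 and 508 in lactation, against 139, 465 and 148 in controls. It was high on the same 3 arrays as Ido1, while Gnl3l varied over a narrower range, from 532 to 643 in lactation and from 515 to 611 in controls.

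The interferon gamma gene itself, Ifng, lay below the filter, with signals of 49.9, 73.6 and 80.0 in lactation and 29.0, 79.9 and 60.6 in controls. Its lowest arrays, lactation replicate 1 and control replicate 1, were also the lowest for Ido1. Irf1, a transcription factor induced by interferon gamma that acts on Ido1 and Nos2, had signals of 3571, 5134 and 4915 in lactation, against 3139, 3621 and 3412 in controls. Lactation replicates 2 and 3 were the highest for Irf1, and lactation replicate 1 lay within the control range. Its log2 difference was 0.40 with a standard error of 0.15, and it ranged from 0.31 to 0.57 when 1 array was left out.

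Of 16 genes listed for interferon gamma signalling and its inflammatory partners, 14 were tested, with 12 higher, 2 lower and 0 called. The list's median log2 difference was 0.18, where that of all tested genes was -0.01, and it depended on single arrays. Leaving out lactation replicate 2 gave 0.07, leaving out control replicate 1 gave 0.11, and leaving out lactation replicate 1 gave 0.35. Tnf, a cytokine of activated macrophages, had 147, 152 and 157 in lactation, against 105, 17.3 and 142 in controls. All 3 lactation arrays lay above the controls, and the log2 difference of 0.96 became 0.28 without control replicate 2. Il1b, an inflammatory cytokine, measured 1677 ± 138 in lactation and 1315 ± 357 in controls (SD, n = 3 each). Its difference of 0.38 was 0.15 without that same control array. Of 7 neutrophil markers 4 were tested, with 3 higher, 1 lower and 0 called in lactation and a median log2 difference of 0.33. The summed signal of the 7 was 5002 to 7886 in lactation and 3777 to 5591 in controls, and none was at 0. Their part in the levels of these inflammatory genes was not tested.

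Kmo, probe set 1418998_at, which hydroxylates kynurenine, had signals of 232, 266 and 161 in lactation, against 179, 264 and 199 in controls. The groups covered nearly the same range. The means were 219.6 ± 53.7 in lactation and 214 ± 44.7 in controls (SD, n = 3 each), and the log2 difference was 0.03 with a 95% interval from -0.52 to 0.57. Its sign was negative when arrays were centred on their medians (-0.019).

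Kmo followed most closely Laptm5, a lysosomal membrane protein of blood-derived cells (r = 0.991), and 4933404O12Rik (r = 0.990), and 118 genes had an r of at least 0.9 over the 6 arrays. Laptm5 had 4644, 5237 and 3658 in lactation, against 4104, 5288 and 4296 in controls, with its lowest value on lactation replicate 3, as for Kmo. Lactation replicate 3 was lowest too in the summed signal of 11 macrophage and monocyte markers. That sum was 46521, 48128 and 32801 in lactation, against 45245, 54327 and 51257 in controls. All 11 markers had a lower mean in lactation and none of the 11 was at 0. The summed signal of 8 dendritic cell markers was also lowest on lactation replicate 3. It was 2849, 3322 and 1963 in lactation, against 2730, 3399 and 2596 in controls. For 7 T and NK cell markers the sum was lowest on control replicate 3, at 1096. The part of these cell types in the Kmo values was not tested.

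Kynu, the hydrolase that cleaves kynurenine and 3-hydroxykynurenine, had signals of 67.5, 61.0 and 82.5 in lactation for probe set 1430570_at, against 58.4, 148 and 104 in controls. Only control replicates 2 and 3 reached their array's median. The means were 70.3 ± 11.0 in lactation and 103 ± 44.8 in controls (SD, n = 3 each), with a log2 difference of -0.40, a 95% interval from -1.13 to 0.32, and a value of -0.14 without control replicate 2. A second probe set, 1451903_at, stayed between 15.2 and 17.6 in lactation and between 15.3 and 21.2 in controls.

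Tdo2 was dim in every tumour. Probe set 1449337_at had 41.1, 50.9 and 65.9 in lactation, against 47.1, 54.7 and 39.7 in controls, a log2 difference of 0.11 with a 95% interval from -0.42 to 0.64. Its other probe sets lay between 2.36 and 9.10 in lactation and between 1.78 and 14.3 in controls. Of 6 hepatocyte markers, 0 passed the level filter. Their summed signal was 142 to 193 in lactation and 157 to 253 in controls, and the highest signal of Alb, the gene of serum albumin, was 33.4 in lactation and 39.3 in controls.

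The rest of the tryptophan pathway gave 23 of 24 listed genes with a single-gene probe set, of which 15 were tested, with 8 higher, 7 lower and 0 called. The median log2 difference was 0.06. Slc7a5, the main importer of tryptophan and other large neutral amino acids, had 789.9, 859 and 525 in lactation, against 903, 1194 and 801 in controls. The groups overlapped in Slc7a5, and the log2 difference was -0.42 with a standard error of 0.22. Wars, the tryptophanyl-tRNA synthetase, which interferon gamma also induces, had 843, 1076 and 1348 in lactation, against 743, 1025 and 711 in controls, a difference of 0.38 with a standard error of 0.21.

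The monoamine oxidase Maob had a difference of 0.31, which was 0.09 without control replicate 1. Qprt, which forms the nicotinic acid mononucleotide at the end of the pathway, lay below the filter with 67.6, 78.7 and 78.4 in lactation, against 26.4, 73.0 and 47.3 in controls. The lowest 2 arrays for Qprt were controls, and its difference of 0.55 was 0.27 without control replicate 1. Ido2, Haao and Il4i1, a paralogue of Ido1, a dioxygenase of the later pathway and a secreted amino acid oxidase that acts on tryptophan, were also below the filter. The signals of Ido2 ran from 12.7 to 74.5 in lactation and from 34.8 to 51.0 in controls. Those of Haao ran from 11.2 to 20.2 in lactation and from 15.4 to 17.9 in controls, and those of Il4i1 ran from 16.4 to 55.7 in lactation and from 33.9 to 58.5 in controls.

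The aryl hydrocarbon receptor is a sensor that kynurenine can activate. Of 11 genes listed for it and its targets, 6 were tested, with 2 higher, 4 lower and 0 called, and a median log2 difference of -0.04. The receptor gene Ahr measured 2872 ± 347 in lactation and 2729 ± 505 in controls. Cyp1b1, a receptor target and cytochrome P450, measured 1851 ± 613 in lactation and 2203 ± 864 in controls. Aldh3a1, an aldehyde dehydrogenase, measured 736 ± 276 in lactation and 969 ± 218 in controls (SD, n = 3 each). The difference of Aldh3a1 was -0.44, and -0.09 without lactation replicate 1.

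Arg1, probe set 1419549_at, had signals of 264, 392 and 680 in lactation, against 414, 555 and 2027 in controls. Control replicate 3 stood apart at the top, and the other 5 arrays interleaved. The highest array stood 7.67 times above the lowest, the widest ratio among the 3 tested genes. The means were 445 ± 213 in lactation and 999 ± 894 in controls (SD, n = 3 each), and the log2 difference was -0.88 (standard error 0.60), with a 95% interval from -2.30 to 0.53. Without control replicate 3 the difference was -0.20, and without lactation replicate 1 it was -0.58. Without control replicate 1 it was -1.33.

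Control replicate 3 was also the highest array in summed fibroblast markers, at 107580, where lactation arrays had 77732 to 85970 and the other controls 75172 and 81477. It was highest too in summed endothelial markers, at 4550, against 3104 to 3354 in lactation and 2896 and 3677 in the other controls. None of these 8 fibroblast and 7 endothelial markers was at 0. In summed macrophage markers control replicate 3 had 51257, below control replicate 2 at 54327. Control replicate 1 had 45245 and the lactation arrays 32801 to 48128. In summed neutrophil markers control replicate 3 had 4074, against 5591 and 3777 in the other controls and 5002 to 7886 in lactation. The part of these cells in the Arg1 values was not tested.

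The genes closest to Arg1 over the 6 arrays were Sdcbp, a scaffold protein of membranes and vesicles (r = 0.992), and Entpd7, a nucleotide-hydrolysing enzyme (r = 0.989), and 166 genes had an r of at least 0.9. Both shared with Arg1 their highest value on control replicate 3, at 10173 for Sdcbp and 223 for Entpd7. The remaining arrays lay between 9300 and 9658 for Sdcbp and between 166 and 187 for Entpd7, with lactation replicate 1 the lowest for each.

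**Figure D2:**
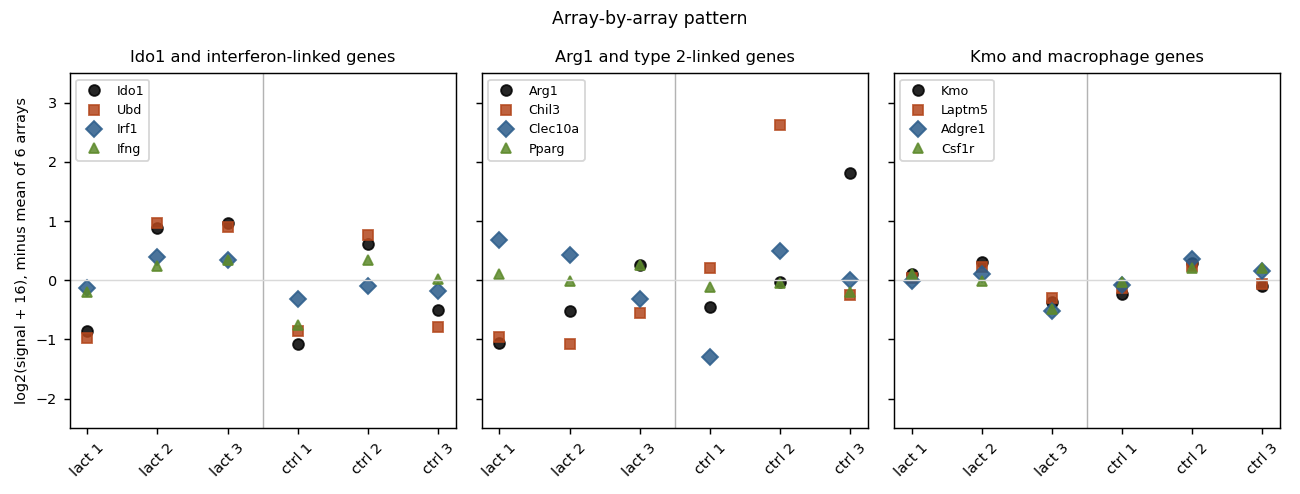
log2(signal + 16) on each array minus the mean of 6 arrays, with lactation arrays on the left of each panel, for Ido1 with Ubd, Irf1 and Ifng, for Arg1 with Chil3, Clec10a and Pparg, and for Kmo with Laptm5, Adgre1 and Csf1r. Ido1 and Ubd were high on the same 3 arrays, while the top array of Arg1 was control replicate 3 and that of Chil3 was control replicate 2.

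The tested genes tied to type 2 cytokines and hypoxia, which raise Arg1 in mouse macrophages, were mixed in direction. Of 16 listed genes 13 were tested, with 7 higher, 6 lower and 0 called, and a median log2 difference of 0.01. The other 3, the cytokine genes Il4, Il13 and Csf2, lay below the filter. In a fit with no filter and each gene as its probe set of highest mean, their log2 differences were -0.55, -0.58 and -0.57. The standard errors were 0.40, 0.27 and 0.29, and the groups overlapped. Signals ran from 3.97 to 44.2 for Il4, from 4.56 to 34.6 for Il13 and from 6.73 to 36.2 for Csf2. These lay far under the array medians, which limits what can be read from them. Chil3, a secreted lectin that mouse macrophages make in response to type 2 cytokines, had 100.1, 90.9 and 138 in lactation, against 246, 1376 and 173 in controls. Its top array, control replicate 2, was not the top array of Arg1. The log2 difference was -1.72 with a standard error of 0.69, and -0.84 without control replicate 2.

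Clec10a, a galactose-binding lectin of macrophages and dendritic cells, had 977, 812 and 479.7 in lactation, against 237, 858 and 603 in controls. Its difference of 0.52 rested on control replicate 1 and was 0.01 without it. Pparg, a nuclear receptor of fat cells and macrophages, had 319, 294 and 357 in lactation, against 272, 287 and 256 in controls. The groups did not overlap in Pparg, and the difference was 0.24 with a standard error of 0.13.

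Arg2, probe set 1418847_at, had 88.1, 99.8 and 85.8 in lactation, against 64.6, 93.1 and 90.6 in controls. All 6 signals lay just under the array medians and close together apart from control replicate 1. The log2 difference was 0.13 with a 95% interval from -0.36 to 0.62. A second probe set, 1438841_s_at, of a design that can match more than 1 transcript, had 48.4, 35.0 and 48.8 in lactation, against 24.6, 57.3 and 50.1 in controls.

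Nos2, probe set 1420393_at, had 7.15, 32.1 and 8.27 in lactation, against 9.61, 21.2 and 8.26 in controls. Its highest arrays were lactation replicate 2 and control replicate 2, both among the 3 high arrays of Ido1, and no signal came near an array median. The log2 difference was 0.08 with a 95% interval from -0.69 to 0.85, and -0.26 without lactation replicate 2.

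Ass1, probe set 1459937_at, had 24.4, 25.6 and 67.3 in lactation, against 21.1, 38.4 and 51.2 in controls. The third replicate was the highest in each group. The log2 difference was 0.01 with a 95% interval from -0.83 to 0.86, and -0.33 without lactation replicate 3.

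**Figure D3:**
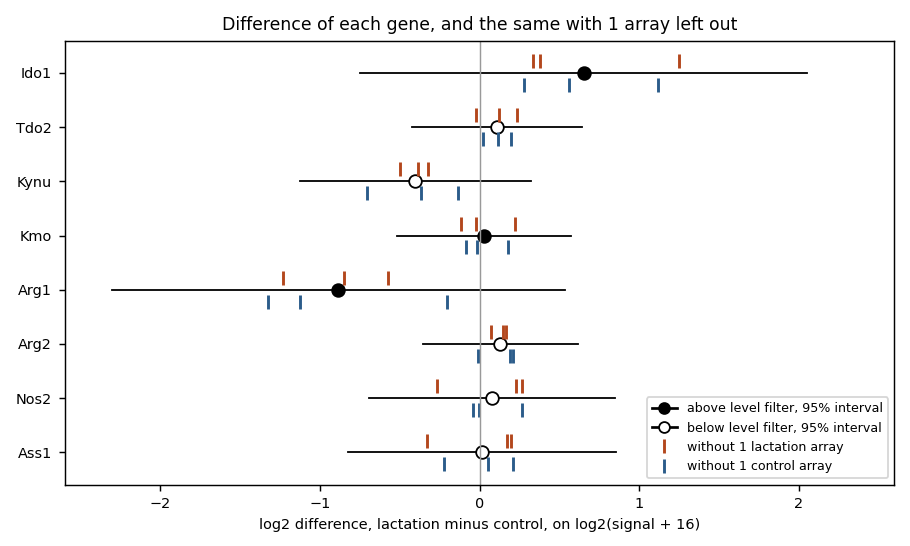
log2 difference, lactation minus control, of the 8 genes with its 95% interval (filled circles for genes above the level filter, open circles for those below). Ticks give the same difference with 1 lactation array (orange) or 1 control array (blue) left out, and every interval includes 0. For Arg1 the ticks ran from -1.33 to -0.20 and for Ido1 from 0.28 to 1.25.

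Around these arginine enzymes, 25 of 28 listed genes had a single-gene probe set and 22 were tested, with 11 higher, 11 lower and 0 called. The median log2 difference was 0.01. Asl, which completes the return of citrulline to arginine after Ass1, had 624, 612 and 614 in lactation, against 628, 560.1 and 618 in controls. The arrays lay close together in both groups, with a log2 difference of 0.04 and a standard error of 0.10. Slc7a2, a carrier of cationic amino acids that feeds arginine to macrophages, measured 368 ± 55.3 in lactation and 393 ± 97.1 in controls (SD, n = 3 each). Its log2 difference was -0.07, and 0.01 with the mean of its 4 probe sets.

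Oat, which turns ornithine towards glutamate and proline, had 3192, 3184 and 2751 in lactation, against 3296, 3476 and 4561 in controls. Every lactation array lay below every control array. Its log2 difference was -0.30 with a standard error of 0.14, and it was -0.16 without control replicate 3, the array on which Arg1 was also highest. Smox, which oxidises spermine, had a difference of 0.27, and Slc7a3, another cationic amino acid carrier, 0.23, each with overlapping groups.

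The kinase GCN2 (Eif2ak4) senses uncharged tRNA when an amino acid such as tryptophan or arginine runs short, and it acts through Atf4. Of 12 genes listed for this response 10 were tested, with 2 higher, 8 lower and 0 called, and a median log2 difference of -0.14. That median was near 0 when control replicate 2 (-0.00056) or lactation replicate 3 (-0.018) was left out. It was -0.28 when control replicate 3 was. Chac1, an Atf4 target that degrades glutathione, measured 279.6 ± 125 in lactation and 377 ± 165 in controls, and Trib3, a pseudokinase, 257 ± 37.0 in lactation and 338 ± 151 in controls. Sesn2, a leucine sensor and stress gene, measured 223 ± 71.5 in lactation and 195 ± 125 in controls (SD, n = 3 each). The groups overlapped for all 3 genes. The differences were -0.42, -0.30 and 0.37, and without control replicate 1 that of Sesn2 was -0.26.

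Over the 6 lists, 80 genes were tested, with 42 higher and 38 lower in lactation, 0 called and 2 at an unadjusted p under 0.05 (limma), namely Irf1 and Chil3. The groups were apart for 7 of the 80, or 8.75%, close to the 6.9% of all tested genes. Of the 25 list genes named by size of difference or as pathway neighbours, 10 changed sign when 1 array was left out. Another 13 kept their sign and moved by over 1.5 times, and Irf1 and Pparg did neither. Il4, Il13, Csf2 and the list genes picked after their values were seen are outside this count.

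**Figure D4:**
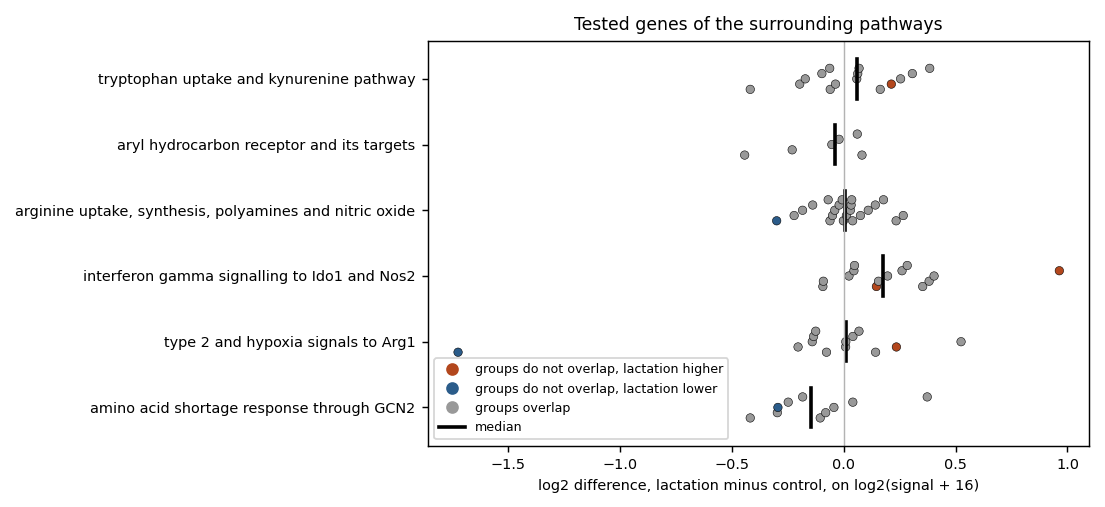
log2 difference, lactation minus control, of the tested genes in 6 lists around tryptophan and arginine use; 1 point is 1 gene and the bar is the list's median. Coloured points are genes whose groups did not overlap, with Tnf at 0.96 on the right and Chil3 at -1.72 on the left.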

How the data were processed

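Total RNA from each tumour was labelled with biotin as cRNA for Affymetrix arrays, per the labels' protocols, and MAS5 gave the deposited intensity values according to the submitters' processing notes. The version and the genome build are not given in the sources used here, and detection calls and scanner files were not used. Of 45101 probe sets, 34958 had 1 gene symbol in the platform annotation, 932 had several and 9211 had none; 34754 matched a RefSeq gene table by identifier. No 2 arrays shared over 0.002% of their values.

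Signals were taken as log2(signal + 16), so fold changes of dim genes can be understated. A gene was its probe set of highest mean, and 11623 genes with at least 3 arrays at or above the array's median were fitted in limma 3.58.1 under R 4.3.3, lactation minus control, with eBayes and a trend on intensity and Benjamini-Hochberg adjustment. The fit was tested on simulated data. Tables and plots used matplotlib 3.10.9, numpy 2.4.6 and pandas 2.3.3 in Python 3.11.15. The members, the 6 pathway lists and the 8 marker lists were chosen with earlier results of these data known. All members were named, with up to 3 genes of each list by size of difference, 9 pathway neighbours in any case and the 2 genes of highest correlation with each tested member. No list was tested as a set. Alternatives were quantile normalization, centring on array medians, added constants of 1 and 64, other filters, other treatments of probe sets, each array left out, a block for replicate number, array weights, and eBayes made robust or without its trend.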

Additional observations from a re-analysis of the deposited data

How the results depend on the processing

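In all 18 alternatives 0 genes were called in limma, with 137 to 649 genes at an unadjusted p under 0.05. Ido1 kept a positive log2 difference throughout, from 0.49 to 0.69 in the alternatives with all 6 arrays and from 0.28 to 1.25 with 1 array left out. Arg1 kept a negative one, from -0.93 to -0.62 and from -1.33 to -0.20, and Kynu from -0.48 to -0.24 and from -0.71 to -0.14. Kmo turned negative with arrays centred on their medians (-0.019) and with array weights (-0.10), and ran from -0.12 to 0.22 with 1 array left out; it had no value with the filter at the 70th percentile. Nos2 was -0.016 with array weights and ran from -0.26 to 0.27 with 1 array left out. Ass1 was -0.0055 after quantile normalization and -0.031 with centred arrays, and ran from -0.33 to 0.21. Tdo2 ran from -0.024 to 0.24 and Arg2 from -0.010 to 0.21 with 1 array left out. The cause of these reversals was not tested.

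The labels do not say whether same-numbered arrays of the groups belong together. The correlations of their deviations from the group means were 0.14, -0.08 and 0.27. Those of differently numbered arrays ran from -0.47 to 0.46, so these values do not settle it. With the replicate block 0 genes were called, the differences of Ido1 and Arg1 were 0.65 and -0.88 as without it, and their adjusted p values were both 0.9998 (limma). Their unadjusted p values were 0.068 for Ido1 and 0.011 for Arg1 with the block, and 0.308 and 0.184 without it. The median of the type 2 list was -0.10 with no filter, -0.14 without lactation replicate 2 and -0.22 without control replicate 1. With 1 array left out the medians ran from 0.02 to 0.11 for the tryptophan list, from -0.10 to 0.08 for the aryl hydrocarbon receptor list and from -0.02 to 0.05 for the arginine list. For Tdo2, Nos2 and the single-gene probe set of Ass1, signals far under the array medians limit what can be read. A brighter probe set shared by Ass1 and Gm5424 is given below.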

Other observations

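Tph1, the tryptophan hydroxylase that opens the serotonin branch outside the nervous system and is known from mast cells and enterochromaffin cells, was singled out after its values were seen. It had signals of 66.6, 32.6 and 44.8 in lactation, against 99.2, 138 and 132 in controls, so that every lactation array lay below every control array. It lay below the level filter. A fit with no filter and each gene as its probe set of highest mean gave a log2 difference of -1.14. The standard error was 0.27 and the adjusted p 0.9996 in limma. The difference ranged from -1.34 to -0.96 when 1 array was left out and was -0.75 with an added constant of 64.

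Nampt, the rate-limiting enzyme of NAD salvage from nicotinamide, Jak2, a kinase of the interferon gamma receptor, and Asns, asparagine synthetase, were also picked after their values were seen, as list genes whose groups did not overlap. Nampt measured 2386 ± 51.7 in lactation and 2063 ± 205 in controls, Jak2 1862 ± 29.0 in lactation and 1684 ± 123 in controls, and Asns 1896 ± 63.7 in lactation and 2376 ± 618 in controls (SD, n = 3 each). None passed the adjusted test.

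A probe set that the platform annotation gives to both Gm5424 and Ass1 was left out of the genes, since its signal cannot be given to either. It had 244, 269 and 232 in lactation, against 207, 376 and 287 in controls. These signals lay above the array medians and the groups overlapped, with a log2 difference of -0.17.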
